A study of Mus musculus with 4 samples.

Results

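The 5 genes Bmp2, Bmp4, Bmp5, Bmp6 and Bmp7, which encode secreted bone morphogenetic protein (BMP) ligands, were taken by gene symbol from the 52459 genes of the expression table, and each symbol matched a single row. RNA was sequenced from first pharyngeal arches, the paired outgrowths that form the jaws, of mouse embryos with 25 to 27 somites at E9.5 to E9.75. The Wnt1-Cre;pMes-Bmp4 group (2 libraries) carried a Cre recombinase driven by Wnt1 sequences and a conditional Bmp4 transgene, pMes-Bmp4, and the wild-type group (2 libraries) carried neither. No group had either allele alone, so raised Bmp4 and other effects of the alleles cannot be told apart. Libraries held 29607541 to 47849092 reads assigned to genes. The labels give no strain, no promoter of the transgene and no number of embryos per library, so a p-value here covers only how far these libraries differ, which may be technical.

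BMPs are made as precursors, cut by proprotein convertases and released as dimers. They bind paired type I and type II receptors, which phosphorylate Smad1, Smad5 and Smad9, and these enter the nucleus with Smad4. Secreted antagonists such as noggin hold the ligands away from the receptors. Bmp2 and Bmp4 form one branch of the family and Bmp5, Bmp6 and Bmp7 another. In the mandibular arch Bmp4 is made in the distal oral ectoderm and later in mesenchyme, where it favours incisor over molar identity, and Bmp7 is made in arch epithelium. Wnt1-Cre is active in the neural crest lineage, the source of most arch mesenchyme.

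Of the 5 ligands, Bmp4 alone passed the test between genotypes, and it rose 3.94-fold in Wnt1-Cre;pMes-Bmp4. Bmp5 gave a higher value and Bmp7 a lower value in both transgenic libraries than in both wild-type libraries, without passing. Bmp2 and Bmp6 overlapped between the groups. Values are normalized read counts, for which the reads of a gene were scaled by 1 factor for the whole library. The test was limma on log2(value + 1), which understates the change of low genes, over the 16746 genes that averaged 10 or more, with an adjusted p under 0.05 as the threshold. All 5 ligands reached that mean. Of the 5 ligands 1 was higher and 0 were lower by this test, where 2.97% of all genes tested were higher, 5.28% lower and 8.25% changed either way. In edgeR, run on the recovered reads, the ligands gave the same counts, where 2.44% of all genes were higher, 5.46% lower and 7.91% changed either way. Without any test, both transgenic libraries lay on one side of both wild-type libraries in 3 of the 5 ligands, and in 59.7% of all genes.

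Sequence at the start of the endogenous genes was read from the reference. Of the 5 ligands 3 had an entry in the RefSeq promoter table (GRCm38.p6), namely Bmp4, Bmp5 and Bmp6, and Bmp2 and Bmp7 had none. The sequences of Bmp4 and Bmp5 are shown because both libraries of Wnt1-Cre;pMes-Bmp4 were above both wild-type libraries for these genes. Each runs from 250 bases before to 50 bases after the start of the gene, 5′ to 3′ on the gene's strand. Bmp4 is taken from chr14:46390620-46390919 on the minus strand and Bmp5 from chr9:75775115-75775414 on the plus strand. Capitals mark the Smad-binding letters GTCT on either strand (AGAC on the other).
Bmp4: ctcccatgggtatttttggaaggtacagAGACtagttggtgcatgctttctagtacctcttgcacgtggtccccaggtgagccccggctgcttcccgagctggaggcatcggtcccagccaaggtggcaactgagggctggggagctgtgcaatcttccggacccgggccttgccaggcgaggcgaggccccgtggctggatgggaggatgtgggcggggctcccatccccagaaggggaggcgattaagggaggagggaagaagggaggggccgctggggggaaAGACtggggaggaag
Bmp5: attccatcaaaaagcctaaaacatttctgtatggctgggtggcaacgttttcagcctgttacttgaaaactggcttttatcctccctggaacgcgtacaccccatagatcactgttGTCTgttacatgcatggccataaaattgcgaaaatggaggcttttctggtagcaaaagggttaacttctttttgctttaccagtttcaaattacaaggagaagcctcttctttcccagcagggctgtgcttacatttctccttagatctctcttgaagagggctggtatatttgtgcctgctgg
The window of Bmp4 held GTCT at 2 places, that of Bmp5 at 1 and that of Bmp6 at 4, and 88.0% of the 32851 windows in the table held it. The GC-rich Smad element GGCGCC and the homeodomain letters TAATTG, searched on both strands, were in none of the 3 windows, and 11.9% of all windows held GGCGCC and 8.0% held TAATTG. None of these motifs overlaps another as spelled here. The Bmp4 window was rich in GC, at 64%, and that of Bmp5 was at 43.3%, where the median window was at 52.7%. A match is a run of letters and says nothing of binding.

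Bmp4 encodes the ligand carried by the transgene and lies on chromosome 14 at 46383520 to 46390669 of GRCm38, the assembly that mm10 names, on the minus strand, with 4 exons in its longest transcript. Its normalized read counts were 2656 and 1745 in Wnt1-Cre;pMes-Bmp4, against 681.7 and 437.1 in wild-type. The lower transgenic library stood well above the higher wild-type library. The group means were 2200 ± 644 in Wnt1-Cre;pMes-Bmp4 and 559.4 ± 173 in wild-type (SD, n = 2 each). The log2 fold change was 1.98 with a 95% confidence interval of 1.34 to 2.61, and the limma adjusted p was 0.0211. Only 58 of the 16746 genes tested had a larger log2 fold change. The table has 1 row for Bmp4, in which transgene reads and endogenous reads are added as far as they share sequence, so the change of the endogenous gene was not measured by itself. The log2 fold change was 2.3 with wild-type replicate 1 left out and 1.66 with wild-type replicate 2 left out. Each such fit leaves a lone wild-type library, so its p-value cannot decide the call. In limma without the trend Bmp4 did not pass (adjusted p 0.145), where 0 of the 16746 genes tested were higher and 0 lower. Over the alternatives that kept all 4 libraries the limma, edgeR or DESeq2 adjusted p ran from 2.23e-10 to 0.145.

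Libraries of 1 group also differed in Bmp4. The first transgenic library held 1.52 times the value of the second, with a 95% counting interval of 1.43 to 1.63, and the first wild-type library 1.56 times that of the second, with an interval of 1.39 to 1.75. These exact intervals are computed from 2490 and 1439 reads in Wnt1-Cre;pMes-Bmp4 and 919 and 425 reads in wild-type, and they cover counting error only. The spread inside each genotype was therefore larger than counting error and smaller than the difference between the genotypes.

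**Figure D1:**
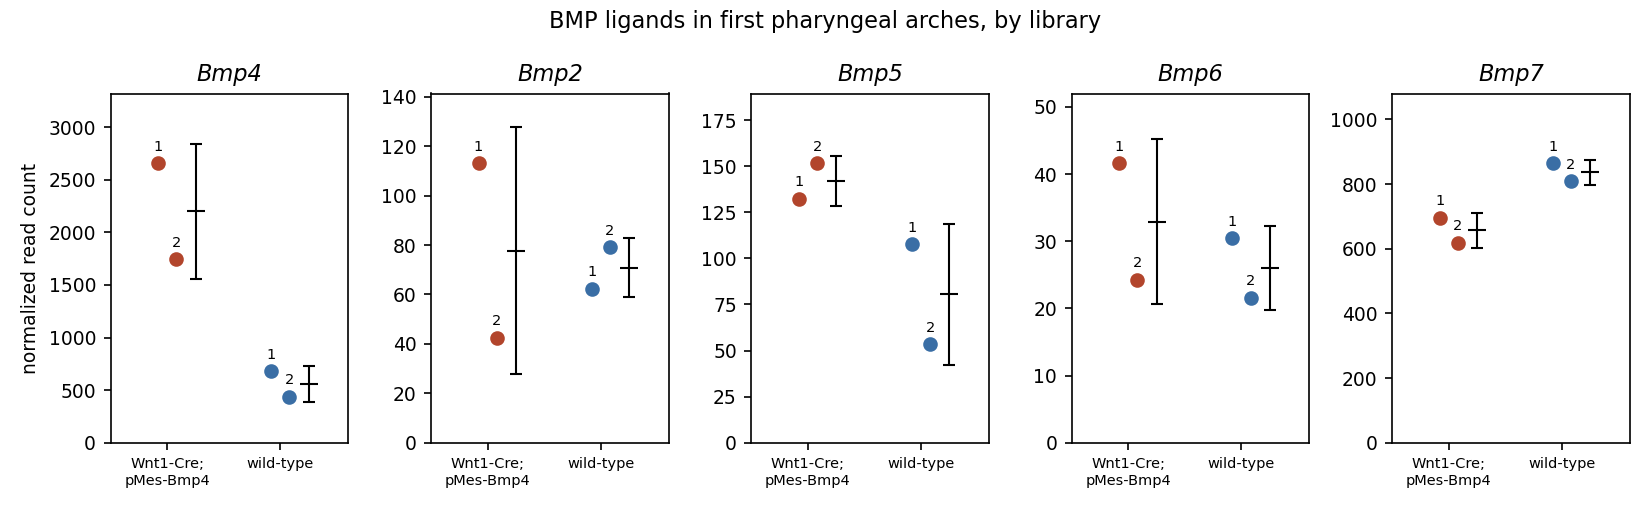
Normalized read counts (vertical axes, each from 0) of the 5 ligands in Wnt1-Cre;pMes-Bmp4 (red) and wild-type (blue); points are libraries with their replicate number, and bars are the mean ± SD of 2 libraries. Bmp4 stood at 2656 and 1745 in Wnt1-Cre;pMes-Bmp4 against 681.7 and 437.1 in wild-type, while Bmp2 and Bmp6 overlapped between the groups.

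Bmp2, the closest relative of Bmp4 among the 5, had 113.1 and 42.44 normalized reads in Wnt1-Cre;pMes-Bmp4, against 62.31 and 79.2 in wild-type. The transgenic libraries lay on either side of both wild-type libraries. The log2 fold change was -0.02 with a 95% confidence interval of -1.15 to 1.12 and a limma adjusted p of 0.984, an interval that holds a doubling as well as a halving. The 2 transgenic libraries differed from each other by 2.66 times, with a counting interval of 1.80 to 4.02. The sign depended on the library: the log2 fold change was 0.68 without Wnt1-Cre;pMes-Bmp4 replicate 2 and -0.71 without replicate 1, and it was 0.12 in edgeR and 0.13 in DESeq2.

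Bmp5, which in mice shapes skeletal elements such as the external ear, had 132.2 and 151.6 normalized reads in Wnt1-Cre;pMes-Bmp4, against 107.6 and 53.48 in wild-type. Both transgenic libraries were above both wild-type libraries, a pattern seen in 30% of all genes tested. The means were 141.9 ± 13.7 in Wnt1-Cre;pMes-Bmp4 and 80.52 ± 38.2 in wild-type (SD, n = 2 each). The log2 fold change was 0.89 with a 95% confidence interval of 0.01 to 1.77, and it did not pass after adjustment (limma adjusted p 0.170; edgeR adjusted p 0.223). Most of the spread lay in wild-type, where the first library held 2.01 times the value of the second, with a counting interval of 1.46 to 2.82. The log2 fold change of Bmp5 was 0.99 without Wnt1-Cre;pMes-Bmp4 replicate 1 and 0.39 without wild-type replicate 2. Over the alternatives that kept all 4 libraries its limma, edgeR or DESeq2 adjusted p ran from 0.155 to 0.265.

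Bmp6 had the fewest reads of the 5, with 39 and 20 recovered reads in Wnt1-Cre;pMes-Bmp4 and 41 and 21 in wild-type. Its normalized read counts were 41.59 and 24.25 in Wnt1-Cre;pMes-Bmp4, against 30.41 and 21.6 in wild-type. The groups overlapped, and in each group the libraries differed by no more than counting error allows. The log2 fold change was 0.30 with a 95% confidence interval of -0.84 to 1.44 (limma adjusted p 0.715), an interval that holds a 2-fold rise, so a rise of that size could be missed at this depth. Bmp6 encodes a ligand best known in adult mice for its part in iron balance.

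Bmp7, a ligand of epithelia in the arch, had 695.4 and 618.4 normalized reads in Wnt1-Cre;pMes-Bmp4, against 864.1 and 809.5 in wild-type. Both transgenic libraries were below both wild-type libraries, a pattern seen in 29.7% of all genes tested. The means were 656.9 ± 54.5 in Wnt1-Cre;pMes-Bmp4 and 836.8 ± 38.7 in wild-type (SD, n = 2 each). The log2 fold change was -0.35 with a 95% confidence interval of -0.72 to 0.02 and a limma adjusted p of 0.194, so a fall as large as the rise of Bmp4 lay outside the interval. Bmp7 was the most even of the 5 inside each group, with a ratio of the first to the second library of 1.12 in Wnt1-Cre;pMes-Bmp4 and 1.07 in wild-type. Its log2 fold change stayed between -0.44 and -0.27 when any 1 library was left out.

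**Figure D2:**
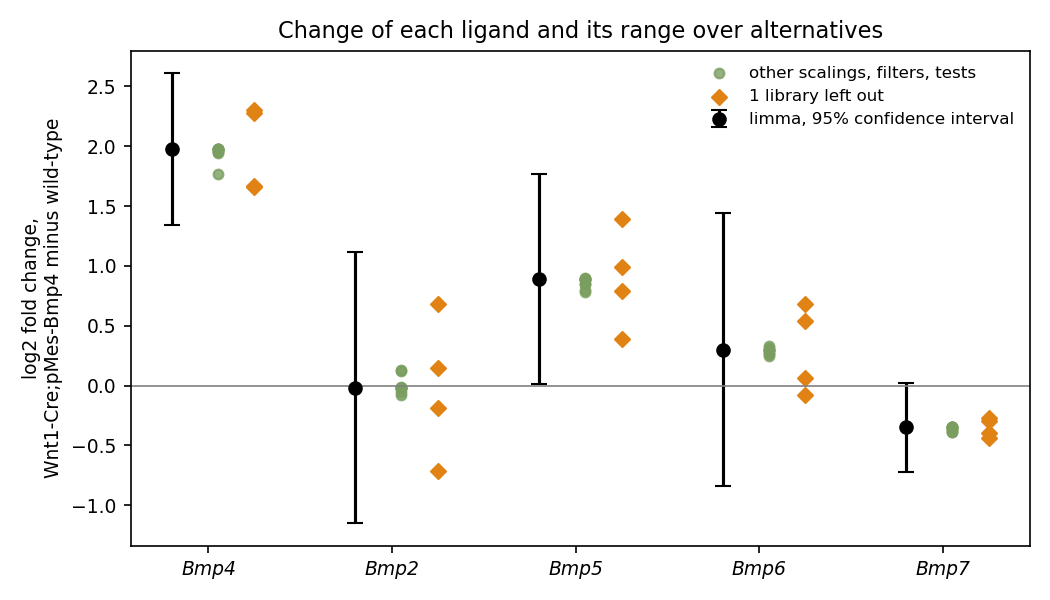
Log2 fold change (vertical axis) of each ligand, Wnt1-Cre;pMes-Bmp4 minus wild-type, with the limma value and its 95% confidence interval in black, other scalings, filters and tests in green, and values with 1 library left out in orange. Bmp4 stayed between 1.66 and 2.30, while the values of Bmp2 ran from -0.71 to 0.68.

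To set the ligands beside each other, values were divided by the length of the longest annotated transcript. This was 2064 bases for Bmp4, 3555 for Bmp2, 3822 for Bmp5, 3593 for Bmp6 and 3670 for Bmp7. The length of Bmp4 sequence in the transgene is not given, so Bmp4 levels per kilobase in Wnt1-Cre;pMes-Bmp4 assume the endogenous length. The shares, sums and ratios below rest on the same assumption. In normalized reads per kilobase, Bmp4 averaged 1066 ± 312 in Wnt1-Cre;pMes-Bmp4 and 271.0 ± 83.8 in wild-type. Bmp7 followed at 179.0 ± 14.8 in Wnt1-Cre;pMes-Bmp4 and 228.0 ± 10.5 in wild-type. These 2 ligands were the abundant ones in every library. Bmp5 was at 34.6 and 39.7 per kilobase in Wnt1-Cre;pMes-Bmp4, against 28.1 and 13.99 in wild-type. Bmp2 averaged 21.9 ± 14.0 in Wnt1-Cre;pMes-Bmp4 and 19.9 ± 3.36 in wild-type. Bmp6 averaged 9.16 ± 3.41 in Wnt1-Cre;pMes-Bmp4 and 7.24 ± 1.73 in wild-type (SD, n = 2 each, for these means). The order by mean was Bmp4, Bmp7, Bmp5, Bmp2 and Bmp6 in both genotypes. In wild-type Bmp4 and Bmp7 did not differ beyond their spread: Bmp4 was above Bmp7 in the first library, at 330.3 against 235.5 per kilobase, and below it in the second, at 211.8 against 220.6. Bmp5 and Bmp2 likewise did not differ beyond their spread in wild-type. In Wnt1-Cre;pMes-Bmp4 the lower Bmp4 value, 845.3 per kilobase, was above the higher Bmp7 value, 189.5.

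The share of Bmp4 in the summed level per kilobase of the 5 ligands was 82.8% and 78.8% in Wnt1-Cre;pMes-Bmp4, against 53.3% and 44.6% in wild-type. It was 31.9 percentage points higher in Wnt1-Cre;pMes-Bmp4, and the exact two-sided permutation p was 0.333, the smallest that 2 against 2 libraries can give. The share of Bmp7 was 12.2% and 15.7% in Wnt1-Cre;pMes-Bmp4, against 38.0% and 46.5% in wild-type. This difference in share came with a summed level of the 4 other ligands that overlapped between the groups, at 267.5 and 226.8 per kilobase in Wnt1-Cre;pMes-Bmp4 and 289.6 and 262.8 in wild-type (exact permutation p = 0.667, two-sided). The sum of all 5 was 1554 and 1072 per kilobase in Wnt1-Cre;pMes-Bmp4, against 619.9 and 474.6 in wild-type (exact permutation p = 0.333).

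Ratios inside a library do not depend on how libraries are scaled to each other. Per kilobase, Bmp4 exceeded Bmp7 by 6.79 and 5.02 times in Wnt1-Cre;pMes-Bmp4, against ratios of 1.40 and 0.960 in wild-type. The ratio of Bmp4 to Bmp6 was 111.1 and 125.3 in Wnt1-Cre;pMes-Bmp4, against 39.0 and 35.2 in wild-type. The ratio of Bmp4 to Bmp5 was 37.2 and 21.3 in Wnt1-Cre;pMes-Bmp4, against 11.7 and 15.1 in wild-type. The ratio of Bmp4 to Bmp2 was 40.5 and 70.8 in Wnt1-Cre;pMes-Bmp4, against 18.8 and 9.51 in wild-type. All 4 ratios were higher in both transgenic libraries than in both wild-type libraries. Each had an exact two-sided permutation p of 0.333, which stays 0.333 after adjustment over the 4. The 4 ratios share Bmp4 as numerator, so they are not separate results.

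**Figure D3:**
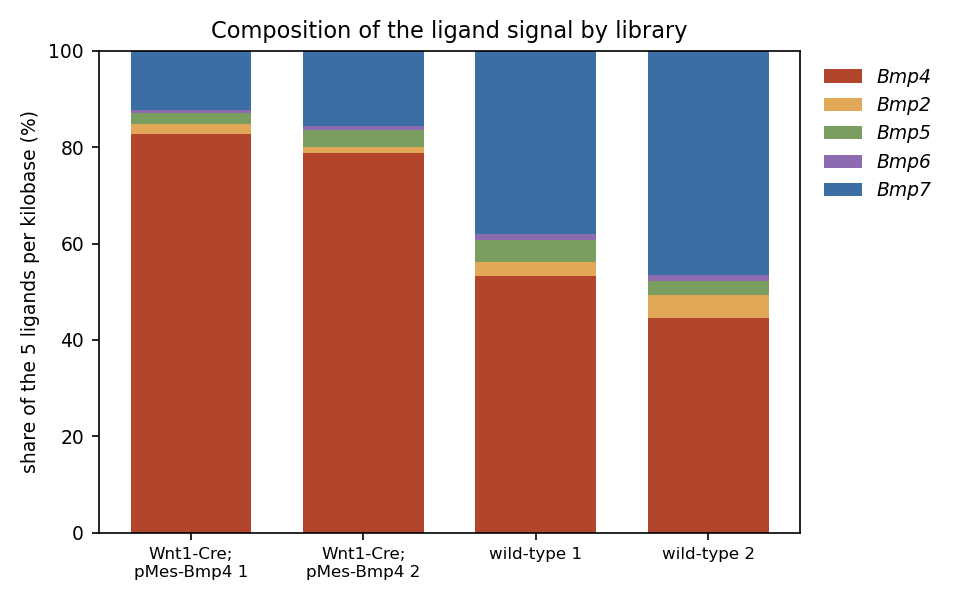
Share in percent (vertical axis) of each ligand in the summed level per kilobase of transcript of the 5 ligands, with 1 bar for each library. Bmp4 took 82.8% and 78.8% in Wnt1-Cre;pMes-Bmp4 against 53.3% and 44.6% in wild-type, and Bmp7 took most of the rest in every library.

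The loci of the ligands were read next, with genes chosen by position after the values had been seen. Bmp4 overlaps 2 annotated genes on the opposite strand, and whether strand was used in counting is not given in the labels or the file. Gm15222, which is antisense to Bmp4 and lies wholly inside it at 46387519 to 46389282 of chromosome 14, had 5.33 and 7.27 normalized reads in Wnt1-Cre;pMes-Bmp4 and 5.19 and 1.03 in wild-type, under the minimum for testing. Gm15217, which overlaps the end of Bmp4 by 89 bases, had at most 1.21 in any library. Bmp5 and Bmp6 also overlap genes on the opposite strand. Gm26903 overlaps Bmp5 by 2468 bases and had at most 6.06 in any library. Txndc5 overlaps the end of Bmp6 by 224 bases. It had 5573 and 5799 normalized reads in Wnt1-Cre;pMes-Bmp4, against 4051 and 4302 in wild-type, and did not pass (limma adjusted p 0.0636). The part of these overlaps in the values of the ligands was not tested. Within 400 kb of Bmp4, 3 genes were tested and 1 of them, Cnih1, a cargo receptor of the early secretory pathway, passed in the higher direction. It had 5826 and 7381 normalized reads in Wnt1-Cre;pMes-Bmp4, against 4327 and 3925 in wild-type (log2 fold change 0.67 ± 0.15 SE, limma adjusted p 0.0436), and it lies 384898 bases from Bmp4. The cell cycle phosphatase gene Cdkn3, beside it, had a log2 fold change of 0.58 and did not pass (limma adjusted p 0.0666). Of the genes tested within 400 kb, 0 of 9 around Bmp5 and 0 of 9 around Bmp6 passed, and 0 genes around Bmp2 reached the minimum. Around Bmp7 1 of 5 passed, the processed pseudogene Gm14303, whose reads may come from its parent gene. Over all 16746 genes tested 2.97% were higher, 5.28% lower and 8.25% changed either way, and so few genes near each ligand cannot show a local effect. In limma without the trend 0 of all genes tested were higher and 0 lower, so the calls of Cnih1 and Gm14303 were lost.

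The pathway around the ligands was read by role in lists chosen with earlier results of these data known. Over all genes tested the median log2 fold change was 0.02, and 2.97% were higher and 5.28% lower in limma. Of 12 other BMP and GDF ligands only 3 reached the minimum level and 1 fell. Bmp10 was at 0 in all 4 libraries. Gdf11, which encodes a ligand that signals through Smad2 and Smad3, had 201.6 and 147.9 normalized reads in Wnt1-Cre;pMes-Bmp4, against 329.3 and 409.4 in wild-type. On the log2 scale the difference was -1.08 ± 0.24 (SE; limma adjusted p 0.0427). Of 6 proteases tested that cut BMP precursors or free BMPs from chordin, 0 passed in limma or edgeR, around a median of -0.01 in log2. The one with the smallest p was the convertase gene Pcsk7, at 0.43 (limma adjusted p 0.250), and Furin, the best known convertase of Bmp4, was at -0.08.

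Of 11 receptors and co-receptors tested, 1 fell and 0 rose, where 5.28% of all genes tested fell and 2.97% rose, so the count is near the share over all genes. Their median was -0.71 in log2. In 7 of the 11 both transgenic libraries were below both wild-type libraries, where 29.7% of all genes tested showed this. Bmpr2, the type II receptor that is most selective for BMPs, was 3.16-fold lower, at 245.3 and 312.8 normalized reads in Wnt1-Cre;pMes-Bmp4, against 815.9 and 942.1 in wild-type. Its limma adjusted p was 0.0194. After a correction for transcript length its log2 fold change was -0.96 and it did not pass (limma adjusted p 0.0577). In limma without the trend 0 of the 11 were lower, where 0 of the 16746 genes tested were lower. The median of the 11 in log2 was -0.86 without wild-type replicate 1 and -0.52 without wild-type replicate 2. The type I receptor gene Bmpr1a had a log2 fold change of -0.17 and its relative Bmpr1b -0.93, and neither passed (limma adjusted p 0.486 and 0.0860).

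Of 13 secreted antagonists and modulators tested, 2 fell and 0 rose, around a median of -0.07 in log2, where 5.28% of all genes tested fell and 2.97% rose. Nbl1, a member of the DAN family of BMP antagonists, was 4.90-fold lower, with 130.1 and 90.93 normalized reads in Wnt1-Cre;pMes-Bmp4, against 360.5 and 800.2 in wild-type (limma adjusted p 0.0260). For this gene the second wild-type library held far more than the first. In limma without a trend in the prior variance the calls of Nbl1 and Crim1 were lost, where 0 of the 16746 genes tested were lower. The median of the 13 in log2 was -0.21 without wild-type replicate 1 and 0.18 without wild-type replicate 2. Crim1, a transmembrane protein that binds BMPs, was 1.90-fold lower (limma adjusted p 0.0386). Noggin, Nog, was at 61.86 and 32.74 in Wnt1-Cre;pMes-Bmp4 and 39.31 and 56.57 in wild-type, and the groups overlapped. Both transgenic libraries were above both wild-type libraries in 4 of the 13 and below in 3, where 30% and 29.7% of all genes tested were. Among the 4, Bmper was at 1.3 in log2 and Sostdc1 at 0.64, and neither passed (limma adjusted p 0.0907 and 0.0759).

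Of 6 Smad transducers and Smurf ubiquitin ligases tested, 2 fell and 0 rose, around a median of -0.46 in log2, where 5.28% of all genes tested fell and 2.97% rose. Smad5 had 1128 and 1120 normalized reads in Wnt1-Cre;pMes-Bmp4, against 2069 and 2390 in wild-type, a difference of -0.98 ± 0.14 (SE) in log2 (limma adjusted p 0.0218). Smurf2, which marks Smads and receptors for breakdown, was 1.67-fold lower (limma adjusted p 0.0310). Smad1, at -0.15, overlapped between the groups. Smad9, at 1.36, had 50.1 and 41.2 normalized reads in Wnt1-Cre;pMes-Bmp4, against 14.1 and 20.6 in wild-type, and did not pass (limma adjusted p 0.103). Both transgenic libraries were above both wild-type libraries in 1 of the 6 and below in 4. Over all genes tested 30% were above and 29.7% below. After a correction of each library for transcript length 5 of the 6 genes that fell in these lists did not pass. Besides Bmpr2, given above, Gdf11 was then at -1.04 in log2 (limma adjusted p 0.0606). Crim1 was at -0.60 (limma adjusted p 0.121), Smad5 at -0.59 (limma adjusted p 0.0648) and Smurf2 at -0.50 (limma adjusted p 0.0929). Nbl1 passed with it, at -2.50 (limma adjusted p 0.0389), as did Bmp4, at 1.77 (limma adjusted p 0.0366). The calls of Gdf11, Smad5 and Smurf2 were also lost in limma without the trend, where 0 of the 16746 genes tested were lower. The median of the 6 Smad and Smurf genes in log2 was -0.54 without wild-type replicate 1 and -0.28 without wild-type replicate 2.

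Of 13 BMP response genes tested, 8 rose and 0 fell, around a median of 0.98 in log2, where 2.97% of all genes tested rose and 5.28% fell. Both transgenic libraries were above both wild-type libraries in 11 of the 13, where 30% of all genes tested showed this. The response gene with the largest change was Msx2, a homeobox gene of the arch, at 4807 and 3354 normalized reads in Wnt1-Cre;pMes-Bmp4, against 996.2 and 1080 in wild-type. Its fold, 3.87, was close in size to that of Bmp4. Bambi, the gene of a pseudoreceptor, Gata3, a zinc finger factor of the distal arch, and Id2, an inhibitor of differentiation, also rose: Bambi by 1.84 in log2 (limma adjusted p 0.0182), Gata3 by 1.56 (limma adjusted p 0.0233) and Id2 by 0.98 (limma adjusted p 0.0194). After the length correction 5 were higher. In limma without the trend 0 of the 13 were higher, where 0 of the 16746 genes tested were higher. The median of the 13 in log2 was 0.9 without wild-type replicate 1 and 1 without wild-type replicate 2. Fewer cells of a type and less RNA per cell cannot be told apart in RNA of whole arches.

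**Figure D4:**
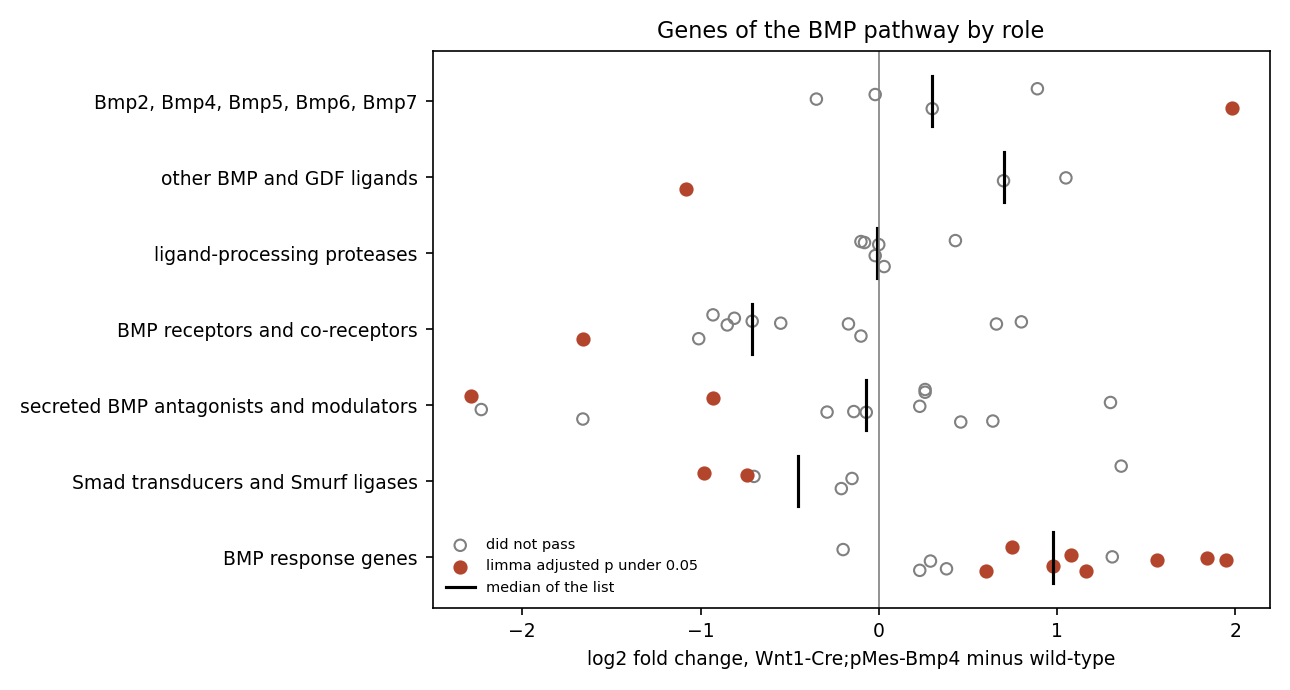
Log2 fold change (horizontal axis), Wnt1-Cre;pMes-Bmp4 minus wild-type, of each gene tested in lists of the BMP pathway; filled points passed at a limma adjusted p under 0.05, open points did not, and black ticks are medians. The response genes had a median of 0.98 with 8 of 13 higher, and the receptors a median of -0.71 with 1 of 11 lower.

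Markers of the cell types that an arch can hold were read beside these values. Crest mesenchyme markers were present in every library, with a summed level of 31141 and 23668 in Wnt1-Cre;pMes-Bmp4 and 22008 and 27250 in wild-type. Prrx2 made up much of this sum, with 15751 and 11812 in Wnt1-Cre;pMes-Bmp4 and 6664 and 6995 in wild-type. Over the 10 tested the median log2 fold change was -0.31, and Prrx2 was higher and Tfap2a lower. The summed level of surface epithelium markers, the cells that make Bmp4 and Bmp7 in the normal arch, was 36493 and 33769 in Wnt1-Cre;pMes-Bmp4, against 27155 and 20506 in wild-type. Of the 11 tested, Krt18 and Krt14 were higher, and the median log2 fold change was 0.48. None of the 12 listed was at 0 in all libraries, and Krt5 was at 0 in 1 library of each group. Red cell markers had a summed level 0.561 times that in wild-type, with 3 of 8 lower. The globin genes Hba-x, Hbb-y and Hbb-bh1 made up most of this sum. Alas2, at 0.36 in log2, went the other way without passing. Of 7 pharyngeal endoderm markers, 7 cardiac markers, 8 endothelium markers, 5 arch mesoderm markers and 8 neuron markers tested, 0 passed in limma in either direction. Over all 16746 genes tested 2.97% were higher and 5.28% lower. In limma without the trend 0 of all genes tested were higher and 0 lower, so the calls of markers were lost. The part of the epithelium and red cell markers in the values of the ligands was not tested.

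Genes whose pattern over the 4 libraries was most like each ligand were found by the root mean square difference of log2(value + 1), each gene centred on its own mean, over 11070 genes that averaged 50 or more. For Bmp4 the nearest were Sct, the gene of the gut hormone secretin, at a difference of 0.071, Bambi at 0.21 and the homeobox gene Nkx2-6 at 0.234. Sct had 654.8 and 386.8 normalized reads in Wnt1-Cre;pMes-Bmp4, against 169.9 and 99.77 in wild-type. Its log2 fold change was 1.94 (limma adjusted p 0.0272), which is no separate result, as Sct was picked for its likeness to Bmp4. For Bmp2 they were Crispld2, Dlg4 and Zfp36, at 0.062, 0.071 and 0.072, all high in the first transgenic library and low in the second. For Bmp5 they were Zfp119a, Nmi and Tmem175, at 0.024, 0.046 and 0.086, all lowest in the second wild-type library. For Bmp6 they were Slc35e4, Rnd2 and Zfp235, at 0.038, 0.052 and 0.058, and for Bmp7 Fcor, Rps18 and Cyfip2, at 0.014, 0.016 and 0.022. Because these genes were picked by their pattern, the highs and lows they share with a ligand follow from the choice. With 4 libraries many genes can share a pattern with no link between them, and a small difference comes easily to a ligand that varies little.

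**Figure D5:**
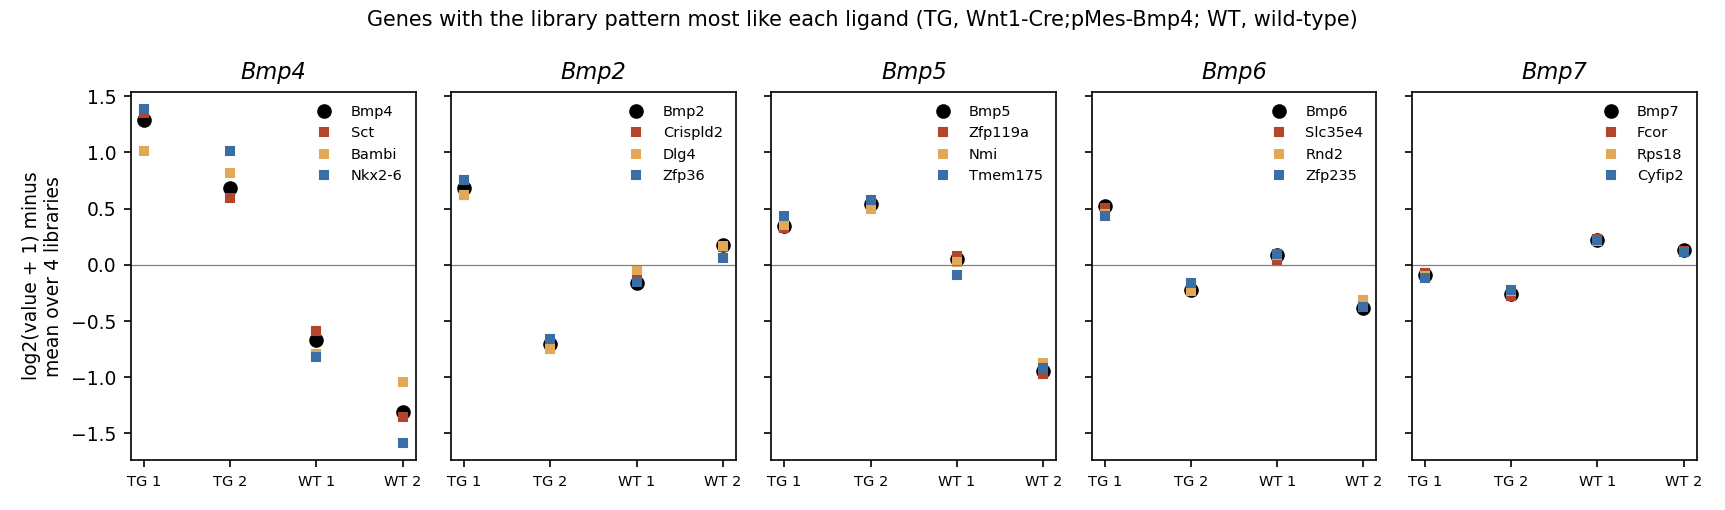
Log2(value + 1) minus the gene's mean over the 4 libraries (vertical axis) in Wnt1-Cre;pMes-Bmp4 (TG) and wild-type (WT) libraries, for each ligand (black circles) and the 3 genes with the smallest root mean square difference from it (squares). Sct followed Bmp4 with a difference of 0.071, and the genes nearest to Bmp2 shared its gap between the 2 transgenic libraries.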

How the data were processed

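The deposited table gives 1 normalized signal value for each gene and library. Its column names, per the file headers, come from featureCounts; that the authors then scaled each library by a size factor was read from the values. When the lowest value above 0 in a library was taken as 1 read, 100% of its values were whole within 0.01. The submitters' processing notes list fastp 0.21.0 and mm10. No aligner, annotation, strand setting or normalizing tool was found in the labels or the header.

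The main test was limma 3.58.1 (R 4.3.3), the prior variance following mean level, no covariates, a pseudocount of 1, two-sided, with Benjamini-Hochberg adjustment over 16746 genes. It had 2 residual and 5.26 prior degrees of freedom. On the recovered reads edgeR 4.0.16 called 409 genes higher and 915 lower. Alternatives were pseudocounts of 0.5 and 5, other filters, TMM scaling, limma without the trend, DESeq2 1.42.0, a replicate block, each library left out, and a spline of 4 degrees of freedom on transcript length fitted where the mean reached 50. Steps were tested on simulated data. For the gene tests the simulated counts had the same spread beyond counting error for every gene. They therefore cannot show how the tests behave on these libraries. Transcript lengths and coordinates came from GENCODE M21.

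The 5 ligands and all lists were chosen with earlier results of these data known. Named genes were the ligands, up to 4 genes per list past the threshold (or the 1 with the smallest p), and the 3 genes most like each ligand, leaving out predicted genes and pseudogenes. Furin, Bmp10, Bmpr1a, Bmpr1b, Nog, Bmper, Sostdc1, Smad1, Smad9, Prrx2 and Tfap2a were added after their values were seen. So were Krt5, Krt14, Krt18, Hba-x, Hbb-y, Hbb-bh1, Alas2 and the genes at the ligands' loci. Hjv was found under its older symbol Hfe2. Figures used matplotlib 3.10.9 in Python 3.11.15.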

Additional observations from a re-analysis of the deposited data

How the results depend on the processing

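Over 14 alternatives Bmp4 kept its direction; its log2 fold change was 1.98 with an adjusted p of 0.145 in limma without the trend, and 1.66 to 2.30 with any 1 library left out. Leaving out a library leaves a lone library in its group, assumed to vary like the others; without a transgenic library the prior degrees of freedom were estimated as infinite, which gives very small p-values. The sign of Bmp2 turned in edgeR (0.12) and DESeq2 (0.13), and ran from -0.71 to 0.68 over libraries left out (0.68 without Wnt1-Cre;pMes-Bmp4 replicate 2, 0.15 without wild-type replicate 2). Bmp6 ran from -0.08 (without Wnt1-Cre;pMes-Bmp4 replicate 1) to 0.68, and Bmp5 from 0.39 to 1.39 (0.99 without Wnt1-Cre;pMes-Bmp4 replicate 1). Bmp7 kept its sign in all 14, and it did not pass in any alternative that kept all 4 libraries. DESeq2 gave no adjusted p for Bmp6, and Bmp6 was not tested with a mean of at least 50. The Bmp4 share differed by 27.5 to 36.2 percentage points with a library left out, and by 35.2 when not divided by length. The cause of these differences was not tested.

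The labels number libraries 1 and 2 in each group, and nothing says that the numbers pair them; same-numbered libraries had a correlation of -0.147 in their deviations from the group means over 16746 genes. With the replicate block Bmp4 had a limma adjusted p of 0.00165, the Bmp4 share differed by 29.5 and 34.2 percentage points in the 2 pairs, and no call of a ligand changed; counts over all genes were 165 higher and 543 lower, against 498 and 884 without it. A crossed pairing, added after seeing the data, called 1763 higher and 1952 lower.

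Counts of all genes higher and lower were 0 and 0 in limma without the trend (3925 at an unadjusted p under 0.05), 107 and 162 after the length correction and 1284 and 1582 in DESeq2. With a library left out they ran from 0 to 2675 higher and 0 to 2719 lower, with 0 and 0 without wild-type replicate 1 (3185 at an unadjusted p under 0.05). Without the trend the BMP response genes had 0 higher, and 0 were lower in each of the other ligands, receptors, antagonists and Smad lists. After the length correction 5 response genes were higher, and lower were 0 other ligands, 0 receptors, 1 antagonist and 0 Smad genes. With the replicate block 0 other ligands, 1 antagonist and 1 Smad gene were lower. DESeq2 called 6 receptors lower and 2 antagonists higher. With a library left out, 0 to 10 response genes were higher and 0 to 1 lower; 0 to 1 receptors higher and 0 to 7 lower; 0 to 2 antagonists higher and 0 to 3 lower; 0 to 1 other ligands lower; and 0 to 3 Smad genes lower.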
